A study of Mus musculus with 78 samples.

Results

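The inner cell mass (ICM) of the mouse blastocyst was compared between E4.0 and E3.5, with 2 RNA-seq libraries at each stage. The members were chosen by label: 4 libraries of the 78 samples in the series, which also holds DNA methylation and chromatin contact data not analysed here. These 4 libraries share a replicate table with 18 others, of E3.5 trophectoderm and of epiblast, visceral endoderm (VE) and germ layer tissues up to E7.5. Every gene of that table was used except the 27 whose symbol had been turned into a date or was repeated, which left 22586 of 22613, and 12874 of these reached at least 1 FPKM (fragments per kilobase of transcript, scaled to library size) in at least 2 of the 22 libraries and were tested.

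E4.0 and E3.5 ICM came from the same kind of embryo, of superovulated C57BL/6N females mated to DBA/2N males. At both stages the zona was removed, the ICM was freed by immunosurgery, in which antibody and complement lyse the outer trophectoderm, and cells were lysed directly for Smart-Seq2, a method that copies polyadenylated RNA of few cells into full-length cDNA. No treatment separates the stages. The number of embryos in a library is not given, nor whether replicates came from separate litters. The p-values measure only the spread between replicate libraries, pooled over all 11 groups of the table and not taken from the ICM alone. E5.5 VE and epiblast, used once at the end, came from naturally mated mothers and RNA was purified on a column.

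During this interval the ICM separates into epiblast, which forms the embryo proper, and primitive endoderm, which forms the yolk sac endoderms. Cells first express factors of both fates together and then settle, with FGF signalling favouring primitive endoderm, whose cells sort to the surface facing the cavity and lay down a basement membrane. The epiblast keeps naive pluripotency genes until after implantation. In bulk libraries, fewer cells of a type and less RNA per cell cannot be told apart.

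In sum, ICM markers were higher in the ICM libraries than in E3.5 trophectoderm. The summed level of 6 ICM markers (Pou5f1, Sox2, Nanog, Fgf4, Gata6 and Spic) was 737 and 579 FPKM in E4.0 ICM, against 593 and 496 FPKM in E3.5 ICM, and 61.2 and 86.8 FPKM in E3.5 trophectoderm. It was 479 and 280 FPKM in E5.5 epiblast, so a high sum is not particular to ICM. Of the 6, Spic and Gata6 were lower in both E4.0 libraries than in both E3.5 libraries, as given below. Replicates correlated at r = 0.968 at E4.0 and 0.988 at E3.5 over the genes tested, on the log2(FPKM + 1) scale, and libraries of different stages at 0.887 to 0.891. Gaps of at least 1 on that scale were lopsided at E3.5, with 228 genes higher in replicate 1 and 3 in replicate 2. At E4.0 these counts were 556 and 459. Low FPKM values fall on steps that 1 read makes. These gave estimates of depth relative to E3.5 replicate 1 of 0.551 and 1.41 at E4.0 and 0.562 for E3.5 replicate 2. The estimates rested, in that order, on 195 of 950, 76 of 693 and 998 of 1827 low genes. Genes at 0 numbered 8491 and 9821 at E4.0, against 7680 and 9427 at E3.5. The estimate of 1.41 is thus uncertain, since that library had the most genes at 0. Absolute depth is unknown. Of genes detected under 0.3 FPKM in both replicates, 54.6% lay at 1 common ratio between the replicates at E3.5, against 10.7% at E4.0. In the other groups of the table that share was at most 28.2%. How independent the 2 E3.5 libraries are was not tested. Blood markers summed to 0.104 and 0 FPKM at E4.0, against 0.728 and 1.28 FPKM at E3.5, and cumulus cell markers were at 0 in all 4 libraries. Markers of uterus and fibroblasts summed to 0.267 and 1.11 FPKM at E4.0, against 0.0147 and 0 FPKM at E3.5, and to 5.85 and 5.02 FPKM in E5.5 epiblast. Their part in the results was not tested.

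Sex-linked transcripts differed between the libraries. The Y-linked genes Ddx3y, Eif2s3y, Kdm5d and Uty summed to 38.4 and 108 FPKM at E4.0, against 0.254 and 0.379 FPKM at E3.5. Xist, the RNA that coats the silenced X chromosome of female cells, was at 26.4 and 0.647 FPKM at E4.0, against 27.0 and 30.5 FPKM at E3.5. Thus E4.0 replicate 1 held both, E4.0 replicate 2 held mainly Y-linked RNA, and the E3.5 libraries held Xist and nearly no Y-linked RNA. Tsix, transcribed antisense to Xist, was at 31.2 and 2.28 FPKM at E4.0, against 52.6 and 60.5 FPKM at E3.5, and since the strand of counting is not stated the reads of Tsix and Xist cannot be told apart. Of 461 X-linked genes tested, 19.5% were called higher and 7.38% lower at E4.0 as deposited, against 20.3% and 5.66% of 11358 autosomal genes. The part of this sex difference in any other result was not tested, and named genes on the X chromosome are marked as such where they are described.

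**Figure D1:**
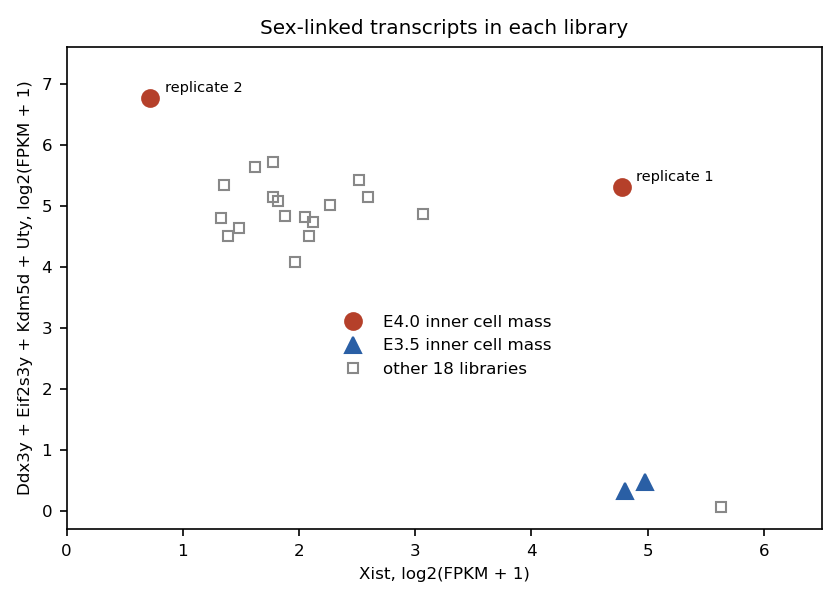
Summed level of 4 Y-linked genes against the level of Xist, both as log2(FPKM + 1), in each of the 22 libraries of the table (filled circles E4.0 ICM, triangles E3.5 ICM, open squares the other 18). E4.0 replicate 1 is high on both axes, E4.0 replicate 2 is high only for Y-linked genes, and both E3.5 libraries lie near 0 on the Y-linked axis.

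A second table, the authors' deposited table with 1 value per group, did not match the E3.5 replicates for some genes. Of 5855 genes at 5 FPKM or more, 217 had an E3.5 ICM group value over 1.5 times that of both replicates and 3 lay below both by that ratio, while in each of the other 10 groups at most 1 gene lay above and 0 below. In this table Lefty2 had 166 FPKM at E4.0, against 68.1 FPKM at E3.5, where the replicates of E3.5 held 1.03 and 1.68 FPKM. How that column was made is not given in the sources used here. Results below rest on the replicates, and group values are given beside some of them. Of the genes described below as risen or fallen, Atp12a, Calr, Cdx2, Cox4i1, Gata1, Hsp90b1, Nr5a2, Pdia6, Phlda2, Pkm, Sfrp1, Slc3a2 and Tdh differed by under 1 log2 in the group table.

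**Figure D2:**
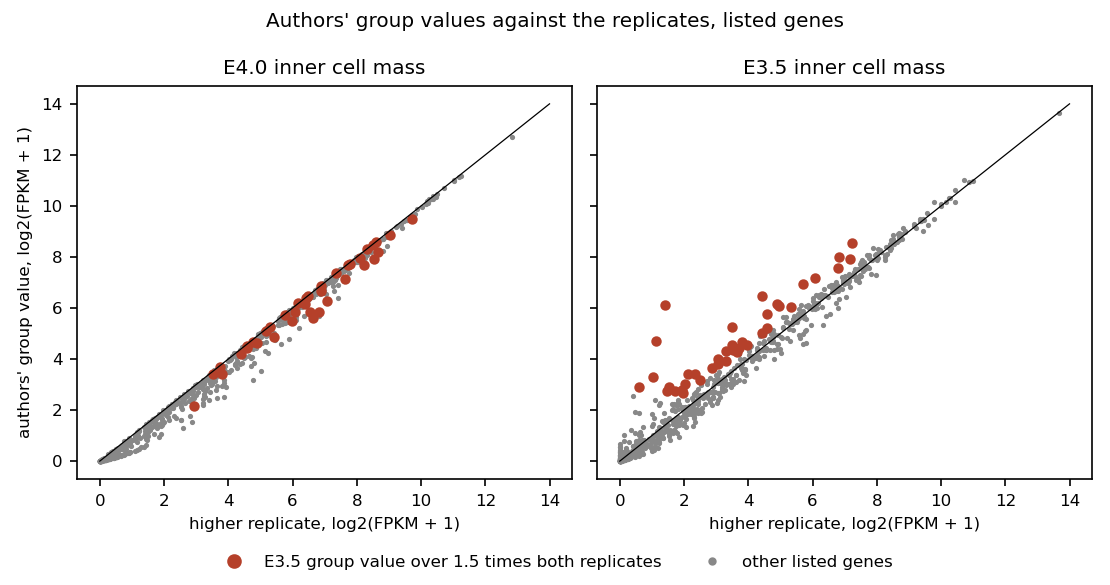
The authors' group value against the higher of the 2 replicates, both as log2(FPKM + 1), for the genes of the lists and the named genes in E4.0 ICM (left) and E3.5 ICM (right); the line marks equality. The genes in red, whose E3.5 group value is over 1.5 times both replicates, lie above the line at E3.5 and along it at E4.0.

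Across the transcriptome more genes were higher at E4.0 than lower. Limma, fitted on log2(FPKM + 1) over all 22 libraries, called genes where the Benjamini-Hochberg adjusted p was below 0.05 and the log2 fold 1 or more in size. By this rule 2592 genes were higher at E4.0 (20.1%) and 757 lower (5.88%), in all 26.0% of those tested. The median of all genes was itself shifted by 0.30 on the log2 scale toward E4.0. After quantile normalization, which removes that shift, 1357 genes (10.5%) were higher and 1354 (10.5%) lower, so that the higher share of calls was 50.1% rather than 77.4%. In what follows, rose and fell are used of genes called the same way under both scalings, which were 1356 higher (10.5%) and 756 lower (5.87%). Folds are log2 E4.0 over E3.5 with the standard error of the fit, less the median shift, while p-values belong to the unshifted fit. A gene listed at 0 throughout a stage is given without a fold. Fitted on the 4 ICM libraries alone, 47 of 203 genes of the lists or named genes that rose or fell kept their direction and lost their call. Of those described below they were Atp12a, Calr, Cbx7, Col4a1, Col4a2, Cyr61, Etv4, Fgfr3, Hsp90b1, Hspg2, Id1, Lama1, Lamb1, Lamb2, Pcx, Pdha1, Pdia6, Pdk1, Psat1, Rspo3, Serpinh1, Slc22a18 and Vgll4 among the rises. Among the falls they were Cdh2, Cdx2, Cited1, Cldn7, Gata1, Hnf4a, Nr5a2, Psap, Tat, Tdg and Tfap2c. Without the filter on low values the calls of Fdps, Klf2, Psat1, Tdg and Tdh ended, and with a pseudocount of 0.1 those of Apoc2, Klf2, Lgals3 and Tdh.

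Among the named genes Trh, the precursor of thyrotropin-releasing hormone, had the largest fold of a rise, at 274 and 319.6 FPKM at E4.0, against 1.19 and 0.905 FPKM at E3.5 (log2 fold 6.88 ± 0.65, limma adjusted p = 2.82e-07). In the authors' deposited group table Trh had 316 FPKM at E4.0, against 25.1 FPKM at E3.5, a log2 difference of 3.60, below that of Sox7 there (5.54). Lefty2, a secreted inhibitor of Nodal, was at 159 and 162 FPKM at E4.0, against 1.03 and 1.68 FPKM at E3.5 (log2 fold 5.82 ± 0.79, limma adjusted p = 1.45e-05). Sox7, an endoderm transcription factor, had 61.4 and 74.7 FPKM at E4.0, against 0 FPKM in both libraries at E3.5. For these 3 genes the libraries of the 2 stages did not overlap, as the choice of the largest changes requires. Next came Chac1, which degrades glutathione, Nr0b1, an X-linked partner of the pluripotency network, and Nostrin, a regulator of nitric oxide synthase trafficking. Nr0b1 was at 92.9 and 102 FPKM at E4.0, against 0.752 and 1.34 FPKM at E3.5 and Nostrin at 59.8 and 68.4 FPKM at E4.0, against 0.311 and 0.331 FPKM at E3.5. S100g, an X-linked calcium-binding protein gene, and Pgc, which encodes a pepsinogen, were both listed at 0 in the E3.5 libraries, with 47.7 and 44.2 FPKM and 30.6 and 33.1 FPKM at E4.0. Genes usually linked with neurons were also among the 15 largest rises, namely Stmn2, a tubulin-binding protein gene with 55.7 and 35.5 FPKM at E4.0, against 0.0585 and 0.104 FPKM at E3.5, and Nefl, a neurofilament subunit gene with 157 and 212 FPKM at E4.0, against 4.15 and 6.29 FPKM at E3.5. The tetraspanin gene Cd81 had 59.98 and 36.7 FPKM at E4.0, against 0.228 and 0.27 FPKM at E3.5. Rnaset2a also met the rule, but it has a near-identical copy, so its value is uncertain.

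Among the falls, Bhmt, which remethylates homocysteine with betaine, had the largest fold, at 0.863 and 0.41 FPKM at E4.0, against 217 and 115 FPKM at E3.5 (log2 fold -6.91 ± 0.43, limma adjusted p = 5.48e-09). Fbp2, a fructose bisphosphatase that runs the glycolytic step in reverse, was at 12.98 and 9.58 FPKM at E4.0, against 692 and 659 FPKM at E3.5 (log2 fold -6.09 ± 0.31, limma adjusted p = 4.98e-10). Dppa3, a maternal factor that protects methylated DNA in the zygote, was at 29.5 and 32.1 FPKM at E4.0, against 1389.9 and 1259 FPKM at E3.5 (log2 fold -5.68 ± 0.64, limma adjusted p = 5.66e-06). Each of these was abundant at E3.5, and its stages did not overlap, as the choice of the largest changes requires. Mgarp, a mitochondrial protein gene, had 0.873 and 1.76 FPKM at E4.0, against 158 and 122 FPKM at E3.5, and Calcoco2, which encodes an autophagy receptor, had 34.8 and 26.2 FPKM at E4.0, against 875 and 588 FPKM at E3.5. Fabp5, a fatty acid carrier gene, was at 13.03 and 18.8 FPKM at E4.0, against 637 and 686 FPKM at E3.5, and Alppl2, an alkaline phosphatase gene, at 0.939 and 0 FPKM at E4.0, against 38.7 and 36.4 FPKM at E3.5. The tetraspanin genes Tspan8 and Tspan1 fell too, Tspan8 being at 2.28 and 1.42 FPKM at E4.0, against 49.9 and 79.7 FPKM at E3.5. Slc15a2, a peptide transporter gene, and Tat, which begins tyrosine breakdown, were at 0 in both E4.0 libraries, against 29.7 and 51.2 FPKM and 53.3 and 8.19 FPKM at E3.5. Pyy, a peptide hormone gene, completed the group with 0 and 0.236 FPKM at E4.0, against 31.1 and 24.7 FPKM at E3.5. Trim43a, a cleavage-stage gene, belongs to a family of close copies, so its fall is uncertain.

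**Figure D3:**
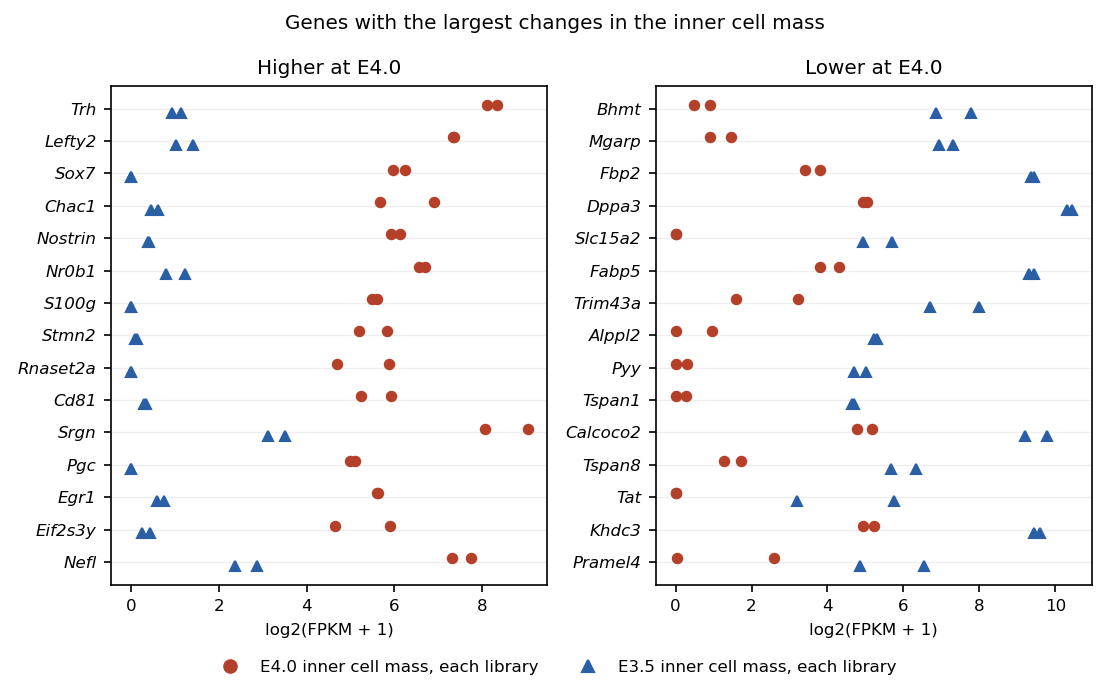
Level of the 15 genes with the largest rise (left) and the 15 with the largest fall (right) in each library, as log2(FPKM + 1); circles are E4.0 ICM and triangles E3.5 ICM, 2 libraries each. For every gene shown the 2 stages do not overlap, as the choice of these genes requires.

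Gene lists moved unequally. Against the 10.5% of all genes that rose, the largest shares were in the integrated stress response (12 of 19 tested), primitive endoderm (12 of 21), immediate early genes (9 of 18), Ifitm and metallothionein genes (3 of 6), glycolysis (10 of 22), parietal endoderm (5 of 11) and basement membrane (9 of 21). Against the 5.87% that fell, trophectoderm genes stood at 11 of 23, Pramel and related multigene families at 4 of 8 and cell junction genes at 7 of 25. The lists hold overlapping genes, and they were described rather than tested. Lefty2, Sox7, Dppa3, Bhmt and Fbp2, named beforehand for these samples, are members of some lists and count in them. Counts of the lists below are to be read against these 2 shares of all genes, and counts as deposited against 20.1% higher and 5.88% lower. For the lists given below with 0 genes that fell, limma gave genes lower at an unadjusted p under 0.05 as follows. These were 3 in the Nodal list, 1 each in the Wnt, citrate cycle, cell cycle, polycomb and protein folding lists, and 0 in the BMP, Hippo, basement membrane, immediate early, integrated stress and glycolysis lists. After quantile normalization they were 5 in the Nodal and Wnt lists, 4 in the citrate cycle, cell cycle, polycomb and Hippo lists, 2 in the BMP list, 1 each in the basement membrane, immediate early, glycolysis and protein folding lists, and 0 in the integrated stress list.

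**Figure D4:**
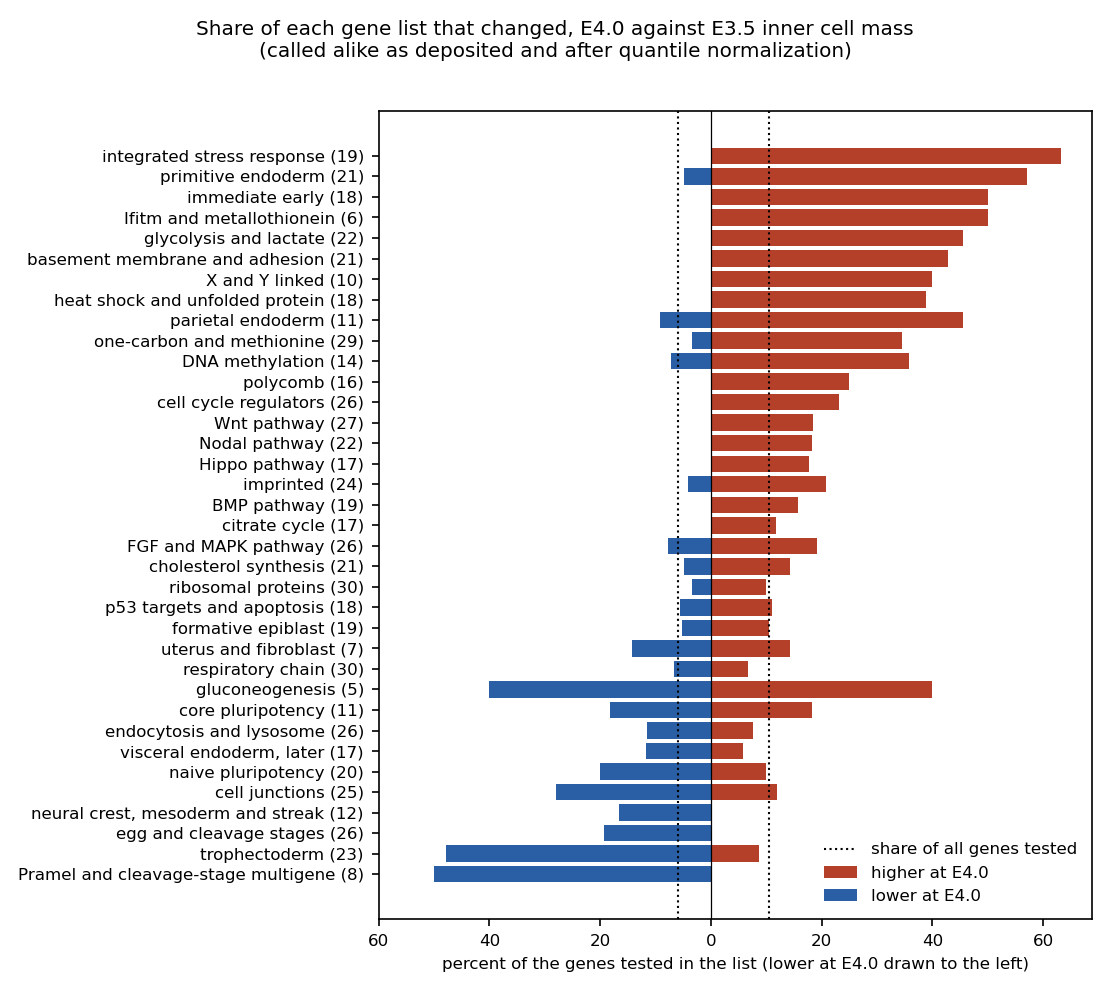
Share of the tested genes of each list that rose (right of 0) or fell (left of 0) at E4.0 relative to E3.5, in percent, with the number tested in parentheses; dotted lines mark the shares over all genes, 10.5% and 5.87%. Lists with fewer than 5 tested genes are not drawn.

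Several genes of the primitive endoderm rose, and its early factors Gata6, Gata4, Pdgfra and Sox17 were not called higher. Of 21 genes tested, 12 rose and 1 fell, with a list median of 1.47 on the log2 scale relative to all genes. E4.0 replicate 1 was above replicate 2 for 14 of the 21, with a median of 0.73 on the log2 scale between these replicates, against 0 over all genes. Foxa2, an endoderm transcription factor, was at 21.4 and 12.5 FPKM at E4.0, against 0.361 and 0.642 FPKM at E3.5 (log2 fold 3.24 ± 0.28, limma adjusted p = 6.2e-08). The endocytic receptor genes Amn, at 111 and 33.3 FPKM at E4.0, against 1.89 and 0.598 FPKM at E3.5, and Dab2, an adaptor for such receptors, at 50.8 and 96.6 FPKM at E4.0, against 6.303 and 9.25 FPKM at E3.5, rose with it. Srgn, which encodes a secretory granule proteoglycan, was at 265 and 522 FPKM at E4.0, against 7.64 and 10.3 FPKM at E3.5, and the receptor gene Fgfr3 at 13.6 and 4.58 FPKM at E4.0, against 0.524 and 0.56 FPKM at E3.5. All 5 genes were higher in both E4.0 libraries than in both E3.5 libraries. The authors' group values were 464 FPKM at E4.0 and 37.7 FPKM at E3.5 for Srgn, and 56.8 FPKM at E4.0 and 6.49 FPKM at E3.5 for Amn, so these differences are smaller there. Gata6, which starts the programme, was at 10.4 and 10.7 FPKM at E4.0, against 20.4 and 21.5 FPKM at E3.5 (log2 fold -1.23 ± 0.40, limma adjusted p = 0.0821), lower after quantile normalization only. Pdgfra, a growth factor receptor of the same lineage, was at 13.5 and 5.63 FPKM at E4.0, against 16.3 and 13.9 FPKM at E3.5 and was likewise called lower only after that normalization. Gata4 was at 8.87 and 11.1 FPKM at E4.0, against 4.58 and 7.54 FPKM at E3.5 and Sox17, whose E4.0 replicates lay on either side of the E3.5 libraries, at 1.53 and 6.38 FPKM at E4.0, against 1.79 and 2.28 FPKM at E3.5; neither was called under either scaling. Hnf4a, a regulator of endoderm differentiation, fell to 0.69 and 0.47 FPKM at E4.0, against 5.35 and 1.98 FPKM at E3.5, and its call ended without E3.5 replicate 1. The rise of the Wnt amplifier gene Rspo3 ended without E4.0 replicate 2 and without E3.5 replicate 2.

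Of 17 genes of the mature visceral endoderm, 1 rose and 2 fell, in all a share near the 16.4% of all genes. Apoe, a lipid carrier gene, was at 848 and 633 FPKM at E4.0, against 135 and 143 FPKM at E3.5 (log2 fold 2.09 ± 0.24, limma adjusted p = 7.03e-07). Afp, for a plasma protein, was at 0 in all 4 libraries, and Apob, for a lipoprotein, was at 0 in both E4.0 libraries, against 0.0214 and 0.0381 FPKM at E3.5. Apoc2, an apolipoprotein gene whose call ended without E3.5 replicate 2, fell to 13.8 and 11.2 FPKM at E4.0, against 39.5 and 47.8 FPKM at E3.5, and Cited1, an X-linked coactivator gene, to 3.47 and 3.28 FPKM at E4.0, against 28.6 and 12.4 FPKM at E3.5. Of 11 parietal endoderm genes, 5 rose and 1 fell, with Stra6, a vitamin A transporter gene, at 15.8 and 8.399 FPKM at E4.0, against 0 FPKM in both libraries at E3.5, and the protease gene Tmprss2 at 0.121 and 0 FPKM at E4.0, against 2.57 and 4.39 FPKM at E3.5.

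Several basement membrane genes rose, with higher levels in E4.0 replicate 1 than in replicate 2. Of 21 tested, 9 rose and 0 fell (median 0.99, against 0 over all genes). Nid2, encoding a linker of laminin and collagen, was at 42.8 and 18.6 FPKM at E4.0, against 0.504 and 0.486 FPKM at E3.5 (log2 fold 3.99 ± 0.40, limma adjusted p = 3.68e-07). The collagen chain gene Col4a1 was at 114 and 23.8 FPKM at E4.0, against 8.08 and 9.94 FPKM at E3.5, Col4a2 at 49.0 and 11.9 FPKM at E4.0, against 4.21 and 4.38 FPKM at E3.5, and the laminin chain gene Lama1 at 72.2 and 20.6 FPKM at E4.0, against 5.01 and 8.13 FPKM at E3.5. Both E4.0 libraries exceeded both E3.5 libraries for each, and E4.0 replicate 1 was well above replicate 2. That held for 17 of the 21 genes, with a median of 0.89 on the log2 scale between the E4.0 replicates, against 5933 of 12874 genes and a median of 0 over all. Without E4.0 replicate 1 the calls of the laminin genes Lamb1 and Lamb2, of the perlecan gene Hspg2 and of Serpinh1, a collagen chaperone gene, ended. Sparc, a matrix glycoprotein gene, was at 676 and 488 FPKM at E4.0, against 154 and 185 FPKM at E3.5 and kept its call. Spp1, encoding osteopontin, was abundant at both stages, with 1782 and 2331 FPKM at E4.0, against 1693 and 1338 FPKM at E3.5, and was not called.

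The core factors Pou5f1, Sox2 and Nanog were not called, while some naive genes fell. Pou5f1, the factor needed to keep the ICM, was at 305 and 215 FPKM at E4.0, against 127 and 106 FPKM at E3.5 and was not called (limma adjusted p = 0.153). Sox2, its partner, was at 11.6 and 12.3 FPKM at E4.0, against 8.66 and 8.5997 FPKM at E3.5, and Nanog at 385 and 322 FPKM at E4.0, against 205 and 185 FPKM at E3.5, neither called. Of 20 naive genes tested, 2 rose and 4 fell, and of 11 core genes 2 rose and 2 fell. Besides Nr0b1, Gbx2, a homeobox gene, was higher, at 1.96 and 3.88 FPKM at E4.0, against 0.155 and 0.0918 FPKM at E3.5. Spic, a factor expressed in early ICM, was at 18.4 and 8.298 FPKM at E4.0, against 226 and 165 FPKM at E3.5 (log2 fold -4.15 ± 0.35, limma adjusted p = 2.56e-07). Nr5a2, a nuclear receptor gene, fell to 2.19 and 2.62 FPKM at E4.0, against 7.697 and 5.83 FPKM at E3.5. The fall of Klf2 did not last without E4.0 replicate 1, without E4.0 replicate 2 or without E3.5 replicate 1. In the core list Lin28a, which blocks maturation of the let-7 microRNAs, was at 19.4 and 21.5 FPKM at E4.0, against 1.08 and 1.02 FPKM at E3.5. The paired genes Dppa2 and Dppa4 fell, Dppa2 to 42.1 and 71.8 FPKM at E4.0, against 316 and 277 FPKM at E3.5 and Dppa4 to 32.1 and 34.7 FPKM at E4.0, against 162 and 147 FPKM at E3.5.

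Of 19 genes of the later, formative epiblast, 2 rose and 1 fell, a share near that of all genes (10.5% and 5.87%). Lef1, a Wnt effector, was at 2.696 and 2.37 FPKM at E4.0, against 0.236 and 0.0839 FPKM at E3.5, and Etv4, a target of FGF signalling, at 3.36 and 4.84 FPKM at E4.0, against 0.697 and 1.24 FPKM at E3.5. Otx2 was at 9.43 and 8.34 FPKM at E4.0, against 8.199 and 5.71 FPKM at E3.5 and was not called, and Fgf5 was listed at or near 0 in all 4 libraries. Cdh2, which encodes N-cadherin, fell to 0.0403 and 1.17 FPKM at E4.0, against 5.58 and 7.24 FPKM at E3.5.

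Many trophectoderm transcripts fell. Of 23 genes tested, 11 fell and 2 rose, with a median of -1.29 relative to all genes. The keratin gene Krt8 was at 6.21 and 3.09 FPKM at E4.0, against 76.7 and 109.7 FPKM at E3.5 (log2 fold -4.39 ± 0.37, limma adjusted p = 2.92e-07), and Krt18 at 8.39 and 3.32 FPKM at E4.0, against 80.7 and 130.4 FPKM at E3.5. Cdx2, the trophectoderm regulator, was at 0.461 and 0.897 FPKM at E4.0, against 2.61 and 3.82 FPKM at E3.5, Gata3 at 1.25 and 1.09 FPKM at E4.0, against 8.16 and 10.1 FPKM at E3.5, and Elf5 at 0 in both E4.0 libraries, against 2.27 and 4.04 FPKM at E3.5. Summed over 6 defining markers, the level was 23.1 and 10.1 FPKM at E4.0, against 185 and 267 FPKM at E3.5, and 1348 and 3012 FPKM in E3.5 trophectoderm; none of the 6 was at 0 in any of the 4 ICM libraries. Over all 24 genes of the list the sums ran from 421 to 492 FPKM at E4.0, against 566 to 680 FPKM at E3.5, and from 6400 to 7538 FPKM in trophectoderm. The part of remaining trophectoderm cells in these falls was not tested. Lgals3, encoding a galectin, and Atp12a, a proton pump subunit gene, rose against the rest of the list, Lgals3 to 51.3 and 60.4 FPKM at E4.0, against 14.002 and 14.1 FPKM at E3.5. The fall of Tfap2c ended without E4.0 replicate 2 and without E3.5 replicate 1. Among cell junction genes, the claudin genes Cldn3 and Cldn7 fell, Cldn7 to 24.9 and 6.76 FPKM at E4.0, against 104 and 104 FPKM at E3.5, and Cldn10 rose, at 4.59 and 5.15 FPKM at E4.0, against 0 FPKM in both libraries at E3.5.

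**Figure D5:**
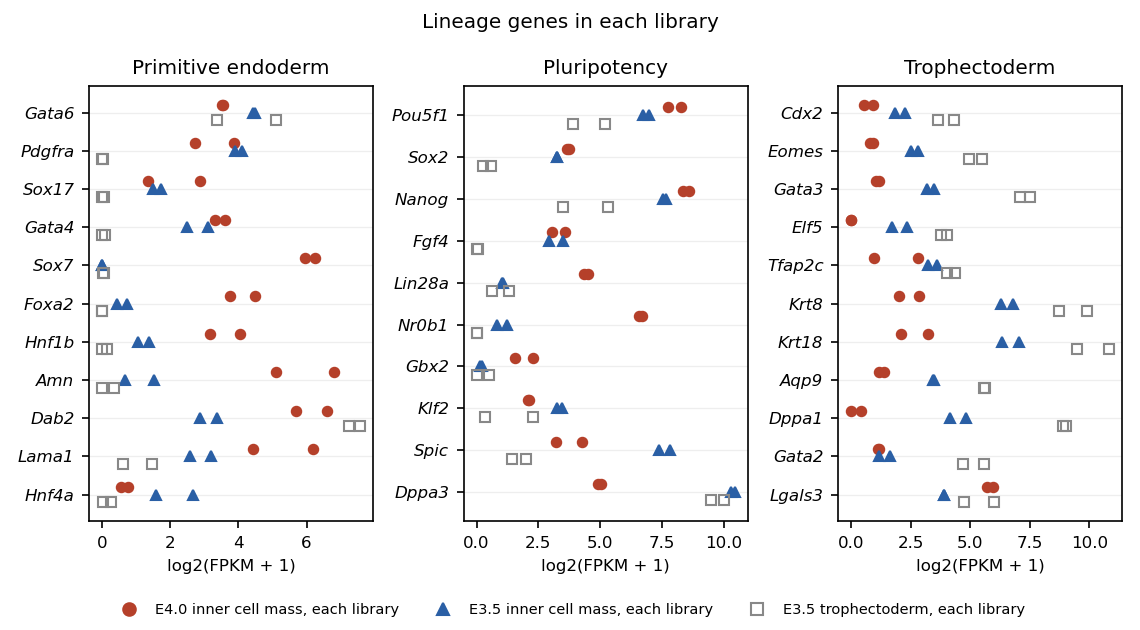
Level of selected primitive endoderm, pluripotency and trophectoderm genes in each library, as log2(FPKM + 1); circles are E4.0 ICM, triangles E3.5 ICM and open squares E3.5 trophectoderm, 2 libraries each. Sox7 and Foxa2 lie far apart between the stages while the stages overlap for Sox17, Nanog and Sox2 lie slightly higher at E4.0 without being called, and Krt8 and Krt18 are lowest at E4.0 and highest in trophectoderm.

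In the Nodal pathway, the ligand gene Nodal and the inhibitor genes Lefty1, Lefty2 and Smad7 rose. Of 22 genes tested, 4 rose and 0 fell, with a median of -0.02 relative to all genes. Nodal, a ligand of the TGF-beta family, was at 34.4 and 12.3 FPKM at E4.0, against 0.683 and 1.12 FPKM at E3.5 (log2 fold 3.23 ± 0.46, limma adjusted p = 1.81e-05). Lefty1, a second inhibitor, was at 58.3 and 13.5 FPKM at E4.0, against 0.535 and 0.0634 FPKM at E3.5, and Smad7, an inhibitory SMAD, at 3.64 and 4.03 FPKM at E4.0, against 0.302 and 0.413 FPKM at E3.5. The E4.0 replicates differed in Nodal and Lefty1, but both exceeded both E3.5 libraries. The coreceptor gene Tdgf1 was at 239 and 249 FPKM at E4.0, against 424 and 454 FPKM at E3.5 and was not called, while the ligand gene Gdf3, at 45.4 and 47.04 FPKM at E4.0, against 83.02 and 86.5 FPKM at E3.5, was called lower only after quantile normalization.

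In FGF and MAPK signalling, 5 of 26 genes rose and 2 fell, although 9 were higher as deposited. Spry4, which restrains the pathway, was at 51.2 and 55.4 FPKM at E4.0, against 2.298 and 2.81 FPKM at E3.5 (log2 fold 3.64 ± 0.50, limma adjusted p = 1.24e-05). The ligand gene Fgf3 was at 10.1 and 5.62 FPKM at E4.0, against 0.815 and 0.181 FPKM at E3.5. Fgf4, the ligand produced by epiblast precursors, was at 7.29 and 10.9 FPKM at E4.0, against 6.67 and 10.4 FPKM at E3.5 and Fgfr2, a receptor, at 4.196 and 6.07 FPKM at E4.0, against 5.81 and 8.198 FPKM at E3.5, and neither was called. Fgfr1, the other main ICM receptor, fell to 2.29 and 2.12 FPKM at E4.0, against 8.81 and 9.13 FPKM at E3.5 (log2 fold -1.94 ± 0.31, limma adjusted p = 0.000587). Receptors thus moved apart, with Fgfr3 higher and Fgfr1 lower at E4.0.

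Of 27 Wnt genes, 5 rose and 0 fell, against 10.5% and 5.87% of all genes. Of the 5, 3 encode secreted inhibitors. Dkk1 was at 45.1 and 53.3 FPKM at E4.0, against 9.22 and 12.9 FPKM at E3.5, Sfrp1 at 8.98 and 12.4 FPKM at E4.0, against 2.101 and 2.31 FPKM at E3.5 and Notum at 2.66 and 2.15 FPKM at E4.0, against 0 FPKM in both libraries at E3.5. In the authors' group table Sfrp1 differed by under 1 log2. Of 19 BMP genes, 3 rose, against 10.5% of all genes. The ligand gene Bmp8a was at 3.18 and 3.74 FPKM at E4.0, against 0.275 and 0 FPKM at E3.5. The target Id1 was at 26.6 and 7.57 FPKM at E4.0, against 1.45 and 2.56 FPKM at E3.5. Bmp4 was at 37.7 and 49.9 FPKM at E4.0, against 37.7 and 50.7 FPKM at E3.5, so its replicates spanned the same range at both stages. Of 17 Hippo genes, 3 rose, against 10.5% of all genes, and 7 were higher as deposited, against 20.1%. Amotl2, encoding a junctional partner of the YAP coactivator, was at 65.3 and 56.2 FPKM at E4.0, against 1.14 and 1.36 FPKM at E3.5 (log2 fold 4.48 ± 0.35, limma adjusted p = 2.43e-08), and Cyr61, a YAP target, at 135 and 50.8 FPKM at E4.0, against 12.1 and 10.2 FPKM at E3.5. Vgll4 lost its call without E4.0 replicate 1.

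Immediate early genes, which respond to growth factors and to handling within minutes, were among the lists with most rises. Of 18 tested, 9 rose and 0 fell, with a median of 1.05 relative to all genes. Atf3 was at 20.7 and 45.4 FPKM at E4.0, against 0.393 and 0 FPKM at E3.5 (log2 fold 4.45 ± 0.29, limma adjusted p = 3.58e-09). Egr1, a zinc finger factor, was at 47.6 and 48.3 FPKM at E4.0, against 0.516 and 0.673 FPKM at E3.5, and Klf6, of the same kind, at 39.5 and 49.9 FPKM at E4.0, against 6.13 and 8.47 FPKM at E3.5. Fos was at 28.6 and 20.6 FPKM at E4.0, against 2.79 and 4.11 FPKM at E3.5, with authors' group values of 23.6 FPKM at E4.0 and 9.65 FPKM at E3.5. Jun, its dimer partner, was at 2.94 and 2.94 FPKM at E4.0, against 0.794 and 1.0004 FPKM at E3.5 and was called higher only as deposited. Dusp1, a phosphatase gene induced by the same signals, was lower in both E4.0 libraries, at 8.45 and 6.61 FPKM at E4.0, against 11.3 and 13.9 FPKM at E3.5, and was called lower only after quantile normalization. Whether dissociation differed between the stages is not given, and its part was not tested.

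The integrated stress response, in which the factor ATF4 switches on genes for amino acid supply and redox balance, had the largest share of rises. Of 19 genes tested, 12 rose and 0 fell (median 1.33 relative to all genes). Atf4 itself was at 259 and 401 FPKM at E4.0, against 90.1 and 82.2 FPKM at E3.5 (log2 fold 1.59 ± 0.26, limma adjusted p = 3.08e-05). Its target Chac1 was at 49.9 and 118 FPKM at E4.0, against 0.366 and 0.52 FPKM at E3.5 (log2 fold 5.46 ± 0.37, limma adjusted p = 5.48e-09). The pseudokinase gene Trib3 was at 28.4 and 29.5 FPKM at E4.0, against 1.88 and 2.103 FPKM at E3.5, and Ddit3, a factor of prolonged stress, at 40.8 and 35.3 FPKM at E4.0, against 5.07 and 4.08 FPKM at E3.5. Gdf15, a secreted stress signal, was at 6.92 and 4.03 FPKM at E4.0, against 0.575 and 1.02 FPKM at E3.5, and Slc3a2, an amino acid transporter subunit gene, at 118 and 109 FPKM at E4.0, against 39.2 and 35.3 FPKM at E3.5. Stages did not overlap for any of these, as was so for nearly all called genes. Nupr1, a stress-induced chromatin protein gene, was at 66.9 and 49.3 FPKM at E4.0, against 8.496 and 8.81 FPKM at E3.5. The authors' group values were 102 FPKM at E4.0 and 6.51 FPKM at E3.5 for Chac1, and 55.9 FPKM at E4.0 and 18.8 FPKM at E3.5 for Nupr1. Psat1, of serine synthesis, lost its call without E4.0 replicate 2 and without E3.5 replicate 2.

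Genes of protein folding in the endoplasmic reticulum rested more on the table used. Of 18 heat shock and unfolded protein genes tested, 7 rose and 0 fell as called on the replicates. Hspb1, a small heat shock protein gene, was at 388 and 364 FPKM at E4.0, against 22.96 and 28.999 FPKM at E3.5 (log2 fold 3.52 ± 0.39, limma adjusted p = 1.07e-06). Herpud1, which helps clear misfolded proteins, was at 39.001 and 70.7 FPKM at E4.0, against 7.28 and 6.58 FPKM at E3.5, and Xbp1, a factor of the unfolded protein response, at 87.9 and 85.6 FPKM at E4.0, against 21.8 and 22.9 FPKM at E3.5. The chaperone gene Hsp90b1 was at 299 and 159.8 FPKM at E4.0, against 66.4 and 59.6 FPKM at E3.5, and Pdia6, a disulfide isomerase gene, at 199 and 109.8 FPKM at E4.0, against 48.3 and 51.2 FPKM at E3.5. In the authors' group table only 3 of the 7 differed by at least 1 log2. There, Hsp90b1 had 205 FPKM at E4.0 and 145 FPKM at E3.5, Pdia6 139 FPKM at E4.0 and 120 FPKM at E3.5, and Calr, a calcium-binding chaperone gene, 239 FPKM at E4.0 and 252 FPKM at E3.5. Calr lost its call without E4.0 replicate 1 and without E3.5 replicate 2, and Pdia6 without E4.0 replicate 1. Hspa5, the main chaperone, was at 408 and 231 FPKM at E4.0, against 149 and 126 FPKM at E3.5 in the replicates, was called only as deposited, and had group values of 289 FPKM at E4.0 and 378 FPKM at E3.5. The cytosolic chaperone gene Hspa8 was at 784 and 1200.1 FPKM at E4.0, against 1217 and 1098 FPKM at E3.5 and was not called.

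Promoters of the stress, immediate early and glycolysis lists were searched for 9 short motifs on both strands, in windows of 250 bases before to 50 after the start of 27025 genes. The letters TGATGNAA, known as a site for ATF4 with C/EBP factors, were in 6 of 19 integrated stress promoters and in 4.51% of all, and among the genes that rose in 3 of 12. The endoplasmic reticulum stress element, CCAAT followed after 9 bases of any kind by CCACG, was in 4 of 17 protein folding promoters and in 0.137% of all, and in 3 of the 7 that rose. TGATGCAA, an exact form of the first motif, was in 4 of the 19 integrated stress promoters, in 2 of the 12 of genes that rose and in 1.03% of all. In the 16 immediate early promoters TGACGTCA, the cAMP response element, was in 2 (2.03% of all). The CArG box, bound by serum response factor, was in 3 (1.81% of all) and an exact form of it in 0 (0.0777% of all). In the 21 glycolysis promoters the hypoxia element ACGTGC was in 8 (6.68% of all), the related form TACGTG in 4 (3.67% of all) and the E-box form CCACGTG in 4 (4.41% of all). Among promoters of genes that rose, each of the glycolysis motifs was in 2 of 10, TGACGTCA in 1 of 5 and the CArG box and its exact form in 0 of 5. Of the 9 immediate early genes that rose, only 5 had a promoter to search. Sites more than 250 bases before the start were not searched. The glycolysis motifs can overlap each other. A match is a description of letters and not of binding. Shown are 2 promoters of each kind, from RefSeq with GRCm38.p6 coordinates, ending at the start of the gene, with the motif in capitals on the printed strand or its reverse complement. They are Chac1 at chr2:119350992-119351241 on the plus strand, Nupr1 at chr7:126625471-126625620 on the minus strand, Hsp90b1 at chr10:86705445-86705694 on the minus strand and Pdia6 at chr12:17266439-17266588 on the plus strand, 250, 150, 250 and 150 bases long. These coordinates are of another build than the mm9 of the expression values.
Chac1: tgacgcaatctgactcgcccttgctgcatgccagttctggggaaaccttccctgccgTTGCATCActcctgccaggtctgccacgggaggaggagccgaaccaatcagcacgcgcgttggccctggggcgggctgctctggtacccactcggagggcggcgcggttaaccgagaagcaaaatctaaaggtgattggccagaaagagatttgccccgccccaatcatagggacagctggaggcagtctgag
Nupr1: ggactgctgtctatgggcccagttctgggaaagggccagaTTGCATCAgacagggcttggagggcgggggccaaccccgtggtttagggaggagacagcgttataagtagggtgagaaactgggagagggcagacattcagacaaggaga
Hsp90b1: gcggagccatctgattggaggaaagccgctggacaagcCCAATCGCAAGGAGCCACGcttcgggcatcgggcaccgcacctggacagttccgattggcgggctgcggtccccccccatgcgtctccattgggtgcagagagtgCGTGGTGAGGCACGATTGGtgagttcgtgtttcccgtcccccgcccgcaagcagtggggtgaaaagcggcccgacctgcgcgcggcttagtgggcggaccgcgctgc
Pdia6: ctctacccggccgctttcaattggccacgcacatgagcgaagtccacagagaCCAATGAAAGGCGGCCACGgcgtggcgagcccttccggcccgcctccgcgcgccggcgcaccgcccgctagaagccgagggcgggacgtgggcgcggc

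Genes of the committed step of glycolysis rose, and those of its reversal fell. Of 22 glycolysis and lactate genes tested, 10 rose and 0 fell (median 1.14 relative to all genes), and 13 were higher as deposited. The 3 phosphofructokinase genes rose, Pfkl to 82.4 and 62.4 FPKM at E4.0, against 2.66 and 2.79 FPKM at E3.5 (log2 fold 3.99 ± 0.39, limma adjusted p = 3e-07), Pfkp to 62.7 and 34.8 FPKM at E4.0, against 2.88 and 2.65 FPKM at E3.5 and Pfkm to 4.32 and 8.26 FPKM at E4.0, against 0.605 and 0.538 FPKM at E3.5. Ldha, which makes lactate, was at 218 and 200.02 FPKM at E4.0, against 15.6 and 20.7 FPKM at E3.5, and Hk2, which traps glucose, at 22.3 and 20.5 FPKM at E4.0, against 5.63 and 6.49 FPKM at E3.5. In the authors' group table the E3.5 values were higher, with 211 FPKM at E4.0 and 88.2 FPKM at E3.5 for Ldha, and 355 FPKM at E4.0 and 189 FPKM at E3.5 for Pkm. Aldoa, the most abundant aldolase gene, was at 486 and 277 FPKM at E4.0, against 359 and 356 FPKM at E3.5 and was not called. Pdk1, which inhibits entry to the citrate cycle, lost its call without E4.0 replicate 2. On the reverse path Fbp2 and Fbp1 fell, Fbp1 to 0.421 and 0.0546 FPKM at E4.0, against 4.79 and 6.69 FPKM at E3.5, while Pck2, the mitochondrial carboxykinase, and Pcx, pyruvate carboxylase, rose, Pck2 to 28.05 and 24.96 FPKM at E4.0, against 2.499 and 1.43 FPKM at E3.5 and Pcx to 12.9 and 3.98 FPKM at E4.0, against 0.0753 and 0.134 FPKM at E3.5.

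Of 30 respiratory chain genes, 2 rose and 2 fell, in all a share near the 16.4% of all genes, with Ndufa4 at 733 and 1042 FPKM at E4.0, against 338 and 342 FPKM at E3.5 and Cox5b, a subunit gene of cytochrome oxidase, at 53.5 and 76.6 FPKM at E4.0, against 373 and 363 FPKM at E3.5 (log2 fold -2.80 ± 0.39, limma adjusted p = 9.89e-05). Cox5b moved against its complex partner Cox4i1, which rose to 1158 and 1203 FPKM at E4.0, against 565 and 531 FPKM at E3.5. Of 17 citrate cycle genes 2 rose, Pcx and Pdha1, and 0 fell, against 10.5% and 5.87% of all genes. The X-linked gene Pdha1 lost its call without E3.5 replicate 2.

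Several folate and serine genes rose, while Bhmt fell. Of 29 one-carbon and methionine genes, 10 rose and 1 fell. The mitochondrial folate genes were higher, Mthfd1l at 35.6 and 27.8 FPKM at E4.0, against 2.15 and 2.38 FPKM at E3.5 (log2 fold 3.02 ± 0.31, limma adjusted p = 3.61e-07), Mthfd2 at 72.8 and 106 FPKM at E4.0, against 15.7 and 15.04 FPKM at E3.5 and Shmt2 at 99.5 and 77.8 FPKM at E4.0, against 21.3 and 20.2 FPKM at E3.5. Psph, the last step of serine synthesis, was at 72.4 and 90.5 FPKM at E4.0, against 12.5 and 15.3 FPKM at E3.5, and Cth, which makes cysteine, at 170.02 and 271 FPKM at E4.0, against 29.9 and 14.96 FPKM at E3.5. Mtr, the folate-dependent alternative to Bhmt, was at 8.599 and 10.5 FPKM at E4.0, against 4.69 and 3.97 FPKM at E3.5 and was not called. The call of Tdh, which breaks down threonine, ended without E4.0 replicate 2, without E3.5 replicate 1 and without E3.5 replicate 2. Several of these genes are known ATF4 targets, so the list is not separate from the stress list.

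Cholesterol synthesis gave 3 rises and 1 fall among 21 genes, against 10.5% and 5.87% of all genes. As deposited 6 were higher, against 20.1% of all genes. Cyp51 was at 18.2 and 11.9 FPKM at E4.0, against 0.213 and 0.38 FPKM at E3.5 and Sqle, the epoxidase, at 34.8 and 30.7 FPKM at E4.0, against 6.84 and 7.26 FPKM at E3.5. The fall of Fdps ended with any 1 of the 4 libraries left out. Of 26 endocytosis and lysosome genes, Amn and Dab2 rose and 3 fell, against 10.5% and 5.87% of all genes. The saposin precursor gene Psap was at 36.7 and 9.85 FPKM at E4.0, against 141 and 111 FPKM at E3.5. The protease gene Ctsc was at 19.9 and 33.4 FPKM at E4.0, against 134 and 97.96 FPKM at E3.5. Metallothionein genes, which bind zinc and copper, rose, Mt1 to 910.3 and 1304 FPKM at E4.0, against 115 and 159 FPKM at E3.5, and so did Ifitm1, of the interferon-induced membrane proteins, to 67.5 and 84.03 FPKM at E4.0, against 2.51 and 3.33 FPKM at E3.5.

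Among genes of DNA methylation, those of the methyltransferases Dnmt3a and Dnmt1 and of the cofactor Dnmt3l rose. Of 14 tested, 5 rose and 1 fell. Dnmt3l, the catalytically inactive cofactor, was at 484 and 406 FPKM at E4.0, against 26.4 and 22.3 FPKM at E3.5 (log2 fold 3.84 ± 0.53, limma adjusted p = 1.45e-05). Dnmt3a, a de novo enzyme, was at 23.8 and 13.1 FPKM at E4.0, against 2.24 and 1.85 FPKM at E3.5, and Dnmt1, the maintenance enzyme, at 18.6 and 15.95 FPKM at E4.0, against 4.22 and 5.16 FPKM at E3.5. Both E4.0 libraries exceeded both E3.5 libraries for these 3. Dnmt3b, the other de novo enzyme, was at 15.9 and 16.2 FPKM at E4.0, against 8.73 and 13.2 FPKM at E3.5 and was not called. Tet1, an oxidase of methylcytosine, was at 15.8 and 14.02 FPKM at E4.0, against 16.6 and 19.1 FPKM at E3.5, and Tet2 at 11.6 and 10.7 FPKM at E4.0, against 9.69 and 8.901 FPKM at E3.5, with neither called. The fall of the glycosylase gene Tdg ended without E4.0 replicate 2, without E3.5 replicate 1 and without E3.5 replicate 2. Of 16 polycomb genes, 4 rose, all of the PRC1 side, with Cbx2 at 6.33 and 3.49 FPKM at E4.0, against 0.585 and 0.446 FPKM at E3.5, Kdm2b at 21.5 and 26.6 FPKM at E4.0, against 7.34 and 6.19 FPKM at E3.5, Cbx7 at 19.6 and 9.92 FPKM at E4.0, against 4.005 and 4.38 FPKM at E3.5 and Rnf2 at 80.8 and 122 FPKM at E4.0, against 33.9 and 36.2 FPKM at E3.5, while Ezh2, the PRC2 methyltransferase, was at 17.4 and 23.7 FPKM at E4.0, against 27.8 and 29.3 FPKM at E3.5 and was not called.

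Of 24 imprinted genes, 5 rose and 1 fell. Phlda2, a growth restrainer expressed from the maternal allele, was at 20.2 and 15.5 FPKM at E4.0, against 0.584 and 1.03 FPKM at E3.5 (log2 fold 3.08 ± 0.32, limma adjusted p = 4.75e-07). In the authors' deposited group table Phlda2 had 17.3 FPKM at E4.0, against 8.88 FPKM at E3.5, a log2 difference of 0.89. Peg3, expressed from the paternal allele, was at 8.42 and 3.64 FPKM at E4.0, against 0.214 and 0.136 FPKM at E3.5. Snrpn, a splicing protein gene, fell to 27.03 and 35.99 FPKM at E4.0, against 121 and 86.5 FPKM at E3.5, and its call ended without E4.0 replicate 1 and without E3.5 replicate 1. The call of Slc22a18 ended without E4.0 replicate 1. Alleles were not analysed here.

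Of 26 cell cycle genes tested, 6 rose and 0 fell. Mycn, a growth factor-responsive MYC gene, was at 57.9 and 68.7 FPKM at E4.0, against 2.52 and 4.41 FPKM at E3.5 (log2 fold 3.58 ± 0.31, limma adjusted p = 7.3e-08), and Myc at 104 and 96.6 FPKM at E4.0, against 19.4 and 17.9 FPKM at E3.5. Ccne2, a cyclin of S phase entry, was at 16.5 and 36.9 FPKM at E4.0, against 2.26 and 1.15 FPKM at E3.5, while Ccnb1, a cyclin of mitosis, was at 59.8 and 151 FPKM at E4.0, against 126 and 173 FPKM at E3.5 and was not called. Of 18 p53 and apoptosis genes tested, 2 rose and 1 fell, near the shares of all genes (10.5% and 5.87%). Among them Bcl2l1, which blocks cell death, rose to 28.3 and 24.2 FPKM at E4.0, against 6.995 and 5.04 FPKM at E3.5, and Perp fell to 1.58 and 0 FPKM at E4.0, against 24.6 and 17.9 FPKM at E3.5.

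Some cleavage-stage transcripts fell. Of 26 egg and cleavage genes tested, 5 fell and 0 rose. Bhmt and Fbp2, among the 5, had been named beforehand for these samples, so that count is partly fixed by the choice of members. Over the 28 genes of the list in the table the summed level was 222 and 220 FPKM at E4.0, against 1829 and 1609 FPKM at E3.5. Khdc3, Fbp2 and Bhmt held 1681 and 1470.0 FPKM of the E3.5 sums, so the difference of the sums rests mainly on these 3 genes. The other 25 genes summed to 179 and 173.5 FPKM at E4.0, against 148 and 139 FPKM at E3.5. Most of their E4.0 sum was Ooep, which was higher at E4.0 as given below, so that sum says little of the rest. Over the 26 genes tested the list median was -1.17 on the log2 scale relative to all genes. Khdc3, a member of the maternal complex beneath the egg cortex, was at 29.6 and 36.3 FPKM at E4.0, against 772 and 697 FPKM at E3.5 (log2 fold -4.74 ± 0.30, limma adjusted p = 8.89e-09). Dppa1, also in the trophectoderm list, was at 0.348 and 0 FPKM at E4.0, against 16.8 and 27.04 FPKM at E3.5, and the fall of the X-linked gene Gata1 ended without E4.0 replicate 2 and without E3.5 replicate 2. Btg4, which clears maternal RNA, was at 0 FPKM in both libraries at E4.0, against 6.35 and 1.77 FPKM at E3.5, and was not called (limma adjusted p = 0.227). The egg genes Rfpl4, Omt2a and Oosp1 shared this pattern, at 0 in both E4.0 libraries and higher in E3.5 replicate 1 than in replicate 2. Ooep, a partner of Khdc3, was at 154 and 159 FPKM at E4.0, against 67.4 and 72.4 FPKM at E3.5 and was called higher only as deposited. By unadjusted p under 0.05 limma gave 2 genes of the list higher. The part of egg or polar body RNA was not tested. Of 8 tested members of the Pramel and related multigene families, 4 fell, with Pramel6 at 30.3 and 30.7 FPKM at E4.0, against 303 and 216 FPKM at E3.5 and Obox6 at 0.475 and 0 FPKM at E4.0, against 17.9 and 11.7 FPKM at E3.5, while Pramel7 was at 123 and 203 FPKM at E4.0, against 109.9 and 95.9 FPKM at E3.5 and was not called; reads of close copies may be split between them.

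The genes that changed were then looked up in the lineages that follow. E5.5 VE and epiblast are other libraries than those of the ICM comparison, but their calls came from the same fit over all 22 libraries. The spread between replicates was pooled over all groups, so a gene with a small spread is called more easily in both comparisons. The calls at E5.5 are thus not independent of those in the ICM. Limma called 41.6% of all genes between them, 11.3% higher and 30.3% lower in VE than in epiblast. Of the 1356 genes that rose in the ICM, 156 (11.5%) were higher in VE and 552 (40.7%) higher in epiblast. Of the 756 that fell, 108 (14.3%) were higher in VE and 115 (15.2%) higher in epiblast. After quantile normalization of the E5.5 comparison these shares were 16.4% and 30.6% for genes that rose, 22.6% and 10.2% for genes that fell, and 18.1% and 19.5% for all genes, of which 37.6% were called. Primitive endoderm genes such as Foxa2 and Amn were called higher in VE, and Dnmt3l, Dnmt3a, Nr0b1 and the folate genes Mthfd2 and Shmt2 were called higher in epiblast. Several genes with a large rise in the ICM, Egr1 and Atf3 among them, were called in neither direction at E5.5.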

How the data were processed

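Expression values were deposited by the authors as FPKM, made with TopHat2 2.0.11 and Cufflinks 2.0.2 on mm9, per the submitters' processing notes. Roles of these tools and the strand setting are not given in the sources used here. Values of 1e-06 or less were set to 0. Genes with at least 1 FPKM in at least 2 of 22 libraries entered a limma fit (version 3.58.1, R 4.3.3) of log2(FPKM + 1) that modelled the mean-variance trend over 11 groups of 2 libraries, leaving 11 residual degrees of freedom. A pseudocount of 1 understates changes of low genes. Named genes were the 15 largest rises and 15 largest falls among called genes whose higher stage averaged 10 FPKM or more, stages not overlapping, and calls kept under quantile normalization and with each library left out. Unnamed or predicted symbols were passed over. Up to 6 members of each of 38 lists by adjusted p, and members that define or oppose a list, were added, as were Trh, Lefty2, Sox7, Dppa3, Bhmt and Fbp2. Members and lists were chosen with earlier results of these data known. The use of both scalings as the criterion was chosen after the median shift was seen. Other genes named in the text, such as Nupr1, Calr, Hspa5, Pkm, Cldn7, Fos, Jun, Dusp1, Spp1, Aldoa, Hspa8, Ezh2, Mtr, Ccnb1, Btg4, Ooep and Pramel7, and those whose call ended under an alternative, were chosen after their values were seen. Tables and motifs were made in Python 3.11.15 with numpy 2.4.6 and pandas 2.3.3, figures with matplotlib 3.10.9. The fit was tested on simulated data. A result that needs a withheld item is not reported here.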

Additional observations from a re-analysis of the deposited data

Results flagged for a closer look

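In the authors' deposited table of 1 value per group, 217 genes had an E3.5 ICM value over 1.5 times that of both E3.5 replicates, which no mean of the 2 can give. The table lies outside the replicate comparison, and such values were nearly absent from its other groups, with at most 1 gene in each. Of these 217 genes, 161 were called higher and 5 lower at E4.0 in the replicates as deposited, against 20.1% and 5.88% of all genes tested. The E3.5 replicate values enter both the choice of these genes and their calls. An excess of higher calls is thus partly built in by the choice. Among all genes called alike under both scalings, 1352 of the 1356 that rose and 755 of the 756 that fell had the same direction in the group table, 1199 and 616 of them by at least 1 log2. The origin of the difference was not tested.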

How the results depend on the processing

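Quantile normalization of the ICM comparison gave 1357 genes higher and 1354 lower at E4.0, and a fit on only its 4 libraries gave 1559 and 474. Quantile normalization of the E5.5 comparison gave 2329 genes higher and 2510 lower in VE. With each library left out in turn, counts ran from 1904 to 2550 higher and 590 to 748 lower at E4.0, and from 1225 to 1623 higher and 3359 to 4290 lower in VE, the lone library of a group being assumed to vary like the others. With a pseudocount of 0.1, no filter or a filter at 5 FPKM these 4 counts stayed within 1.5 times. The authors' group values, an alternative chosen after seeing the data and without a test, turned round Calr (-0.072) and Hspa5 (-0.38) among 261 genes followed. The replicate block gave 2582 higher and 765 lower at E4.0. Replicate numbers were not taken to pair the samples, since the labels name no shared litter. Deviations of the stages correlated at 0.037 over 12874 genes. That value cannot exclude a pairing, because the E3.5 replicates differed little (r = 0.988). Under the block 260 of 261 genes stayed on their side of the threshold, Ring1 being the other, and 0 of the 203 called alike under both scalings lost their call. With a filter at 5 FPKM 0 of 189 such genes lost it. The depth of single libraries limits genes near 1 FPKM.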
